A study of Homo sapiens with 6 samples.

Results

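The phagocyte NADPH oxidase was examined through 7 of its genes, CYBB, CYBA, CYBC1, NCF1, NCF4, RAC1 and RAC2, which were chosen by name and matched to Ensembl identifiers in a deposited table of 23227 genes. All 7 were found in the table and all 7 passed the filter on low counts, which left 14635 genes for testing. The data came from RNA sequencing of MV4-11, an established line of human acute myeloid leukaemia driven by the KMT2A-AFF1 fusion and a duplicated stretch of FLT3. The control group held 3 libraries of cells labelled wild type with no treatment, whose titles carry the letters NC. The other group held 3 libraries of the same line, also labelled wild type, in which ENO1 (alpha-enolase, a glycolytic enzyme) was knocked down. The knockdown columns name a single hairpin (sh2), so the comparison rests on 1 hairpin in 1 line. Whether the controls carried a control hairpin was not stated in the labels. The comparison asked how transcript levels differ between cells with and without the ENO1 knockdown.

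The phagocyte oxidase is the enzyme with which neutrophils and macrophages make superoxide, by moving electrons from cytosolic NADPH across the membrane to oxygen. Its catalytic core is a membrane heterodimer of the chains encoded by CYBB and CYBA, which is silent until cytosolic subunits and a Rac GTPase join it. Inherited loss of CYBB, CYBA, NCF1, NCF4 or CYBC1 causes chronic granulomatous disease. In myeloid leukaemia cells the oxidase is a known source of reactive oxygen species.

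The libraries held between 20044602 and 26373960 counts, and ENO1 itself fell from 3240 to 3285 CPM (counts per 1000000 after TMM scaling of library sizes) in the controls to 101 to 103 CPM in the knockdown libraries, which left 3.13% of the control level. Mitochondrially encoded genes took 6.69 to 6.88% of the counts in the controls and 9.27 to 9.69% in the knockdown libraries. The libraries farthest from the rest of their group were control replicate 2 (chi-square per degree of freedom 2.74 and 3.02 against the other controls) and knockdown replicate 3 (3.81 and 3.95). The remaining pairs within a group were at 2.06 and 2.24. Nothing in the labels says that replicates were separate cultures, and the p-values then cover no more than variation among these libraries, which may be technical.

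Most of the 7 genes were higher in the knockdown cells, but by very unequal amounts. At an adjusted p below 0.05 (edgeR quasi-likelihood test, Benjamini-Hochberg over all genes tested), 5 of 7 rose, which were CYBB, NCF1, RAC1, NCF4 and CYBC1. RAC2 fell and CYBA did not pass. Of all genes tested, 59.9% passed in either direction, 29.4% as higher and 30.5% as lower. The groups of libraries did not overlap for 6 of the 7 genes, as for 64.3% of all genes. The median log2 fold change of the 7 genes was 0.39, beside 0.00431 over all genes tested. In bulk RNA such as this, a change in the number of cells that carry a transcript and a change in its amount per cell cannot be told apart.

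**Figure D1:**
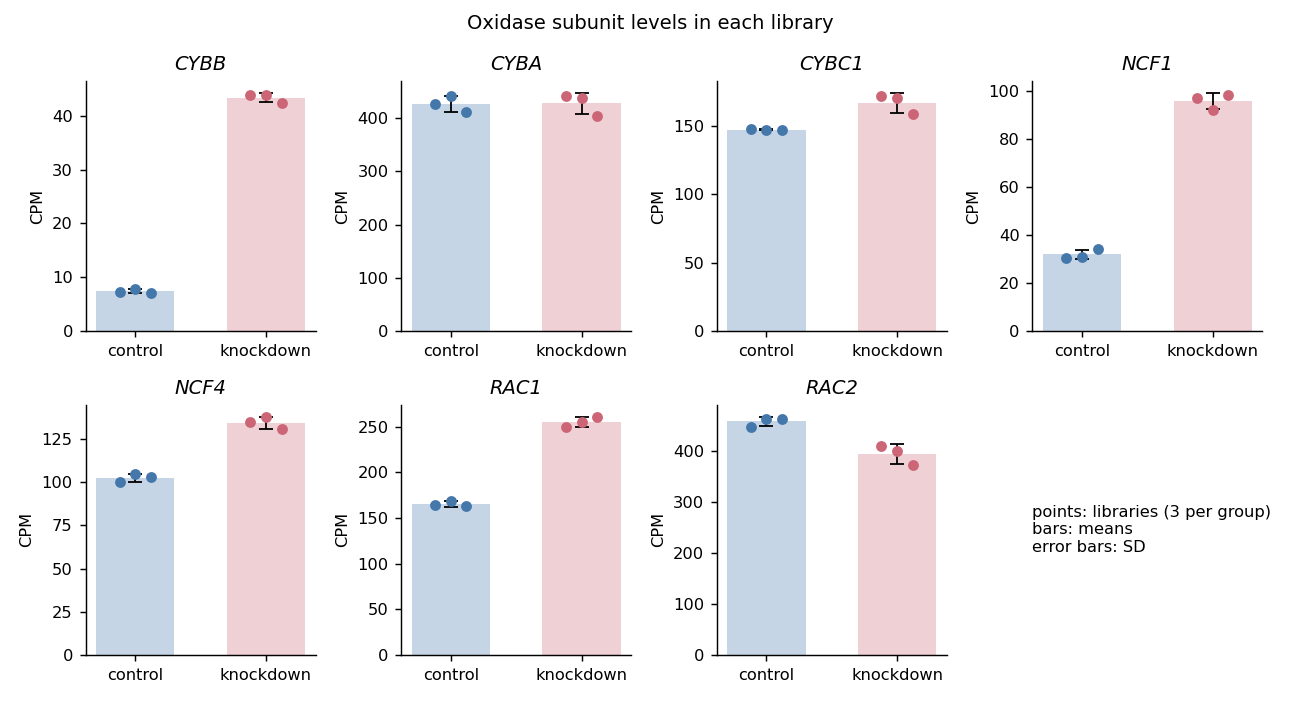
CPM of each of the 7 genes in the 3 control and 3 knockdown libraries (points), with means (bars from 0) and SD (error bars). CYBB and NCF1 show the widest gaps relative to their control levels, CYBA libraries overlap, and RAC2 is the only gene of the 7 whose knockdown libraries all lie below the controls.

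CYBB encodes the large glycosylated chain that holds the NADPH, flavin and haem sites. The gene (ENSG00000165168, GRCh38 chromosome X, 37780011 to 37813461, plus strand) had 190, 191 and 174 counts in the controls against 943, 967 and 862 after knockdown. These are 7.33, 7.83 and 7.14 CPM in the controls and 43.8, 43.9 and 42.4 CPM after knockdown. Every knockdown library lay far above every control, with a gap of 34.6 CPM between the groups. The mean level rose from 7.43 ± 0.358 to 43.4 ± 0.845 CPM (SD, n = 3), or 2.54 ± 0.07 as a log2 fold change (approximate SE; edgeR quasi-likelihood adjusted p = 5.37e-21), which is 5.83-fold (95% interval 5.25 to 6.48). Only 1.07% of all genes tested had a higher log2 fold change.

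CYBA encodes the small membrane chain that binds CYBB and docks the cytosolic subunits. The gene (ENSG00000051523, chromosome 16, 88643283 to 88651152, minus strand) was at 425.7, 441.1 and 410.9 CPM in the controls and at 440.3, 436.4 and 404.3 CPM in the knockdown libraries. The groups overlapped, and the lowest library was knockdown replicate 3. The means were 426 ± 15.1 and 427 ± 19.8 CPM (SD, n = 3). The log2 fold change was 0.0039 with a 95% interval of -0.07 to 0.07 (edgeR adjusted p = 0.929), which is 0.956-fold to 1.05-fold. CYBA passed the test when control replicate 2 and knockdown replicate 3, the libraries that stood apart, were set aside, with a log2 fold change of 0.07 (edgeR adjusted p = 0.0178).

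CYBC1, also known as Eros, encodes a chaperone of the endoplasmic reticulum that the CYBB and CYBA chains need for stable assembly. The gene (ENSG00000178927, chromosome 17, 82442589 to 82450829, minus strand) was at 147.6, 146.6 and 146.9 CPM in the controls and at 171.7, 169.9 and 158.5 CPM after knockdown. All knockdown libraries were above all controls, and knockdown replicate 3 was again the lowest of its group. This gave a log2 fold change of 0.18 ± 0.04 (approximate SE; edgeR quasi-likelihood adjusted p = 8.46e-05), a 1.13-fold rise. Of its annotated exon bases 0.788% (57 bases) overlap exons of HEXD on the other strand, and the strand setting of the counting is not given in the sources used here. HEXD itself had mean levels of 17.7 CPM (control) and 24.2 CPM (knockdown), and its part in the CYBC1 value was not tested.

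The bases before the RefSeq start of CYBB, NCF1 and CYBA are shown because the first pair had the largest rises of the 7 genes and CYBA had no call. RefSeq promoters (GRCh38.p14) were found for 4 of the 7 genes, and the 250 bases before the RefSeq start were searched on both strands for GAGGAA (the ETS site type bound by PU.1), a pair of GAAA tetramers 2 bases apart (the core of the interferon-stimulated response element), TTCNNNGAA (the STAT site), CCAAT (the CCAAT box) and GGGCGG (the GC box). Capitals mark every match, and sequences run 5′ to 3′ on the strand of the gene. They lie at chrX:37779809-37780058 (plus strand, CYBB), chr7:74773761-74774010 (plus strand, NCF1) and chr16:88651054-88651303 (minus strand, CYBA).
CYBB: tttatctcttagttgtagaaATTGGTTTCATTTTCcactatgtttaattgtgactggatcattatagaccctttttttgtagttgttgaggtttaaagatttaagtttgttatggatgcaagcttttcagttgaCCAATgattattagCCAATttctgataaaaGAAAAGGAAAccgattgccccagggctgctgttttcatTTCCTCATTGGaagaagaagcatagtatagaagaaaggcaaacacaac
NCF1: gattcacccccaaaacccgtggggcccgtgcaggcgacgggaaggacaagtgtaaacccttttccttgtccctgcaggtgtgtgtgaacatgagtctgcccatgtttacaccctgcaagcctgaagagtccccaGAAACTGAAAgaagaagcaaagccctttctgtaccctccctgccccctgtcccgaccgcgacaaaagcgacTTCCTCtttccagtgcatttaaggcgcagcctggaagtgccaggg
CYBA: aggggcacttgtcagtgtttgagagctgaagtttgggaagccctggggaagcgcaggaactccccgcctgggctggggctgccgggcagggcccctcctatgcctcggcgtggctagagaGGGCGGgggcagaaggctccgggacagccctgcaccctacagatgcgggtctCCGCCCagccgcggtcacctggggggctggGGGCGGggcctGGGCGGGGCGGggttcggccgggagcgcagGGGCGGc

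The CYBB window held 2 matches to the GAAA pair, which began 225 and 86 bases before the start, 1 match to GAGGAA at 48 bases and 4 to CCAAT at 230, 116, 102 and 42 bases. The NCF1 window held 1 match to the GAAA pair at 116 bases and 1 to GAGGAA at 45 bases. The CYBA window held 6 matches to GGGCGG, of which a pair shared a base, and no match to the other letters. The CYBC1 window held no match to any of the 5. That window (chr17, 82449727 to 82449976, minus strand) lies wholly inside the gene positions given for CYBC1. It therefore does not cover the bases before the gene start given there. The CYBB, NCF1 and CYBA windows also run partly into their genes, because the RefSeq starts differ from the gene starts given here. Of 35116 promoter windows of the same length, 3.02% held the GAAA pair, 23.6% GAGGAA, 6.57% TTCNNNGAA, 32% CCAAT and 42.6% GGGCGG. The CYBB window was 34% G and C with 1 CpG, the NCF1 window 56.4% with 9 and the CYBA window 73.6% with 18, beside medians of 58% and 11 over all windows. These matches are a description of letters and were not tested as sites.

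NCF1 encodes the organiser subunit that is phosphorylated on activation and brings the cytosolic complex to CYBA. The gene (ENSG00000158517, chromosome 7, 74773962 to 74789315, plus strand) was at 30.6, 31.0 and 34.3 CPM in the controls and at 97.1, 92.1 and 98.4 CPM after knockdown. The groups were 57.8 CPM apart at their closest. The mean rose from 32.0 ± 2.02 to 95.9 ± 3.31 CPM (SD, n = 3), or 1.58 ± 0.05 as a log2 fold change (approximate SE; edgeR quasi-likelihood adjusted p = 6.56e-20), which is 3.00-fold (95% interval 2.79 to 3.23).

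The NCF1 value is uncertain as to locus, because 42.1% of the 50-base stretches of NCF1 transcripts also occur in transcripts of other genes, chiefly its pseudogene copies NCF1B and NCF1C on the same chromosome. NCF1B (ENSG00000290838) had 758, 784 and 771 counts in the controls against 1935, 2207 and 1832 after knockdown, close to the counts of NCF1 in each. The ratio of NCF1B to NCF1 counts ran from 0.916 to 1.09 over the 6 libraries. NCF1B had a log2 fold change of 1.59 (edgeR adjusted p = 1.67e-19), and NCF1 and NCF1B together went from 63.0 ± 3.05 to 189 ± 2.72 CPM (SD, n = 3). How the counter placed reads that fit both copies is not given in the sources used here, so the rise cannot be assigned to NCF1 alone. GENCODE 29, from which the stretches were taken, lists NCF1B under another identifier than the counts do. NCF1C was not analysed here.

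NCF4 encodes the cytosolic subunit whose PX domain binds phosphatidylinositol 3-phosphate on phagosomes. The gene (ENSG00000100365, chromosome 22, 36860988 to 36878015, plus strand) was at 100.1, 104.9 and 102.8 CPM in the controls and at 135.1, 137.7 and 130.8 CPM in the knockdown libraries. The groups did not overlap. This gave a log2 fold change of 0.39 ± 0.04 (approximate SE; edgeR quasi-likelihood adjusted p = 7.45e-10), a 1.31-fold rise (95% interval 1.24 to 1.38). The antisense gene NCF4-AS1 shares 27 exon bases with NCF4 and was at 0.401 and 0.527 CPM in the control and knockdown groups, far below NCF4 in each.

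**Figure D2:**
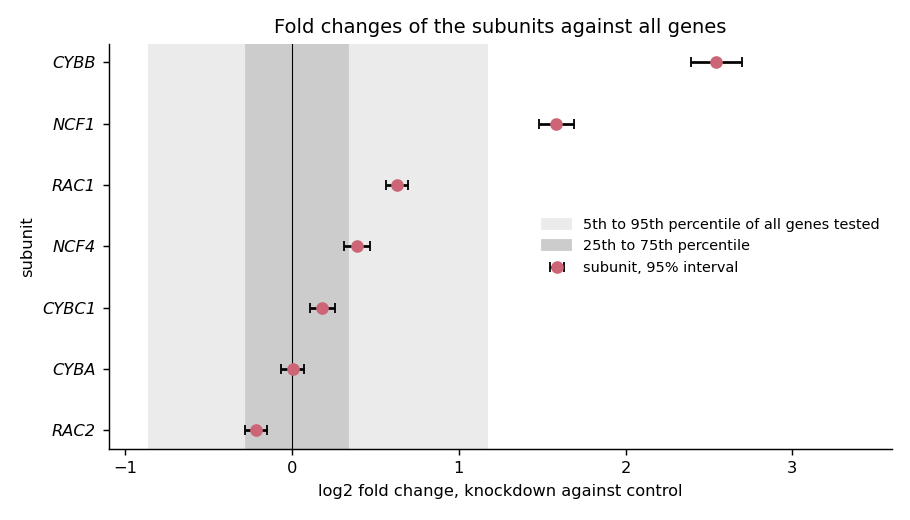
Log2 fold change of each gene, knockdown against control (points, 95% intervals as error bars), over the range of all 14635 genes tested (shaded, 5th to 95th and 25th to 75th percentiles). CYBB at 2.54 and NCF1 at 1.58 lie above the 95th percentile of 1.17, while CYBC1, CYBA and RAC2 lie inside the central band.

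RAC1 and RAC2 encode closely related GTPases, either of which can switch on the assembled oxidase. RAC1 is found in most cell types and RAC2 mainly in blood cells, where it is the main form of the neutrophil oxidase. RAC1 (ENSG00000136238, chromosome 7, 6374523 to 6403977, plus strand) was at 163.9, 168.6 and 162.7 CPM in the controls and at 249.6, 255.1 and 260.9 CPM after knockdown. All 3 knockdown libraries were above all controls by at least 81.0 CPM. The mean rose from 165 ± 3.15 to 255 ± 5.65 CPM (SD, n = 3), or 0.63 ± 0.03 as a log2 fold change (approximate SE; edgeR quasi-likelihood adjusted p = 1.7e-15), which is 1.55-fold. Of the 50-base stretches of RAC1 transcripts 12.3% also occur in other genes, chiefly RAC1 pseudogenes, so its value is uncertain as to locus. Unlike NCF1B, these pseudogenes were not found by symbol among the counted genes, so their counts could not be set beside those of RAC1.

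RAC2 moved the other way. The gene (ENSG00000128340, chromosome 22, 37225261 to 37244448, minus strand) was at 448.1, 463.7 and 463.8 CPM in the controls and at 410.0, 401.1 and 372.7 CPM in the knockdown libraries. The groups did not overlap, and knockdown replicate 3 was the lowest. The mean fell from 459 ± 9.02 to 395 ± 19.5 CPM (SD, n = 3), or -0.22 ± 0.03 as a log2 fold change (approximate SE; edgeR quasi-likelihood adjusted p = 2.05e-06), which left 86.1% of the control level.

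Since RAC1 rose while RAC2 fell, the balance of these GTPase transcripts was compared within each library. In reads per kilobase of annotated exon, RAC2 stood to RAC1 at 3.36, 3.38 and 3.51 in the controls and at 2.02, 1.93 and 1.76 in the knockdown libraries. No knockdown library reached the control range. The RAC2 share of the summed RAC1 and RAC2 level was 77.4% ± 0.393 in the controls and 65.5% ± 1.62 in the knockdown cells (SD, n = 3). The log2 ratio of RAC2 to RAC1 differed by -0.85 between the groups (two-sided exact permutation test, p = 0.1), and 0.1 is the smallest p that 3 against 3 libraries allow. A ratio within a library needs no library scaling.

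The transcripts of the membrane heterodimer moved closer in level. In reads per kilobase of annotated exon, CYBB stood to CYBA at 0.0131, 0.0135 and 0.0132 in the controls and at 0.0756, 0.0763 and 0.0796 in the knockdown libraries. The CYBA level per length was thus 75.5 times that of CYBB in the controls and 13.0 times in the knockdown cells. With the longest annotated transcript as the length, these values were 175.2 and 30.1 times, so the size of the imbalance depends on the length used. Its change between the groups cannot depend on it, because a fixed length per gene cancels from the difference in log2 ratio. The log2 ratio differed by 2.54 (two-sided exact permutation test, p = 0.1, the smallest possible here). CYBB remained the lower chain by a wide margin in every library.

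**Figure D3:**
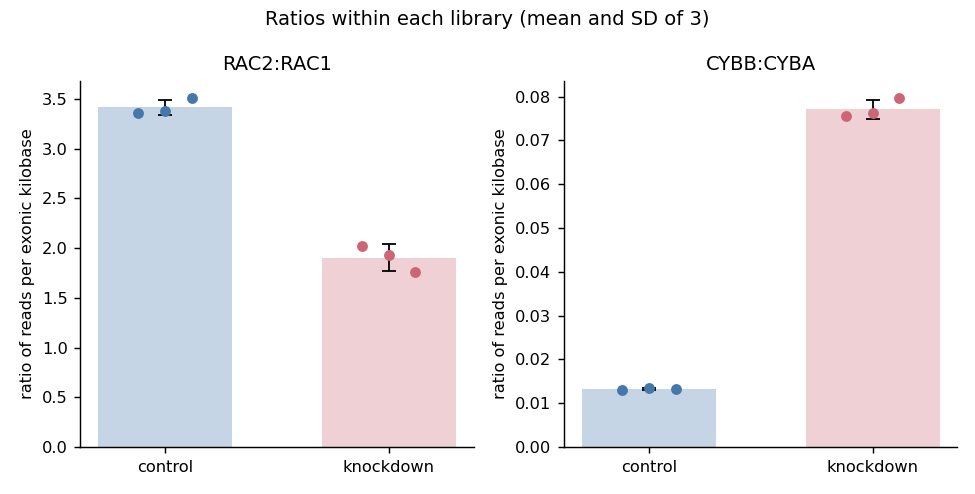
Ratios of reads per exonic kilobase within each library (points), with means (bars from 0) and SD (error bars) of 3 libraries per group. RAC2:RAC1 falls from a mean of 3.42 to 1.90, and CYBB:CYBA rises from 0.0132 to 0.0772, with no overlap between groups.

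Levels of the 7 genes can be compared only per length. In the controls the order of levels in CPM per exonic kilobase was RAC2 at 181 ± 3.56, CYBA at 127 ± 4.49, NCF4 at 58.3 ± 1.35, RAC1 at 53.0 ± 1.01, CYBC1 at 20.3 ± 0.0716, NCF1 at 9.24 ± 0.583 and CYBB at 1.68 ± 0.0808 (SD, n = 3). In the knockdown cells the order of levels was RAC2 at 156 ± 7.68, CYBA at 127 ± 5.90, RAC1 at 82.0 ± 1.81, NCF4 at 76.5 ± 2.00, NCF1 at 27.7 ± 0.956, CYBC1 at 23.0 ± 0.994 and CYBB at 9.81 ± 0.191 (SD, n = 3). RAC1 moved above NCF4 and NCF1 above CYBC1, and CYBB stayed last. Neighbours in either order did not overlap between libraries, but the closest, NCF4 and RAC1, differed by only 1.10-fold in the controls and 1.07-fold in the knockdown cells.

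The order depends on the lengths used. The ranks of NCF1 and RAC1 may also depend on how reads shared with their pseudogenes were placed. With the longest annotated transcript in place of all annotated exons, RAC2 and CYBA overlapped in the controls, CYBA was above RAC2 in the knockdown cells, and RAC1 was above NCF4 in both groups. NCF1 and CYBC1 then overlapped in the knockdown cells. CYBB was last under both lengths in both groups.

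**Figure D4:**
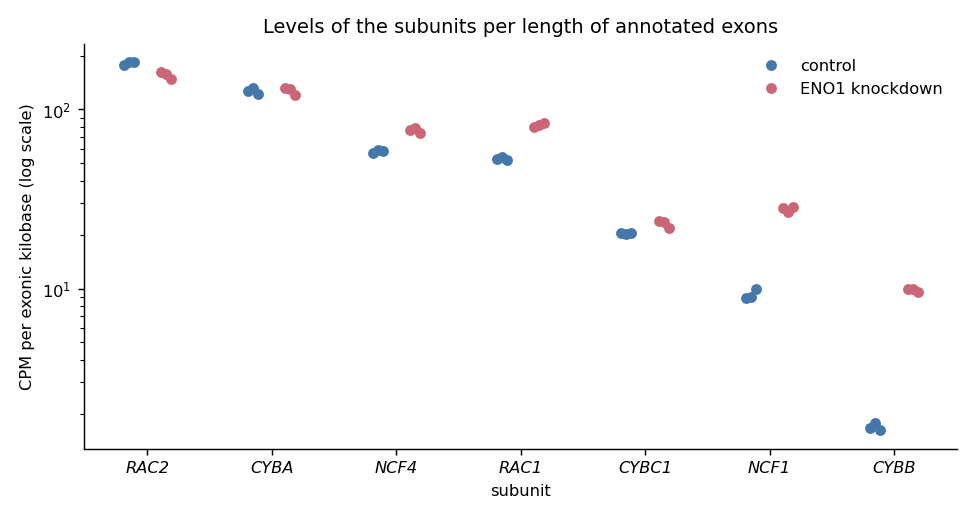
Levels of the 7 genes in CPM per kilobase of annotated exon (log axis), with each control and knockdown library as a point. The genes span from 181 (RAC2) to 1.68 (CYBB) in the control means, and from 156 to 9.81 in the knockdown means.

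The profile of CYBB over the 6 libraries was closest, by Euclidean distance between centred log2 CPM values (0.5 CPM added), to those of IFITM1 (distance 0.155), TRIM22 (0.17) and IFIH1 (0.203). These genes had log2 fold changes of 2.56, 2.41 and 2.47. The profile of CYBA was closest to those of SNX11 (0.0476), FZR1 (0.0525) and CEP85 (0.0556), none of which passed the test. Such distances mainly reflect the size of the difference between the groups.

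The oxidase is switched on by signals that reach Rac and the cytosolic subunits. Of 18 tested Rac-related GTPases and their regulators, 9 rose and 5 fell, and the median log2 fold change of the list was 0.21. For this and the lists that follow, the shares of all genes tested are those given above, 29.4% higher and 30.5% lower, with a median of 0.00431. ARHGDIB, the inhibitor that holds Rac proteins in the cytosol of blood cells, rose from 284 ± 2.03 to 860 ± 11.8 CPM (SD, n = 3), with 1.60 as the log2 fold change (adjusted p = 7.08e-26, edgeR). The third Rac gene, RAC3, had a log2 fold change of -0.74. The Rac exchange factors TIAM1 and TIAM2 had log2 fold changes of 0.76 and 0.70 from low control levels of 2.12 and 1.34 CPM.

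Of 16 tested kinases and lipid signalling genes upstream of the oxidase, 8 rose and 6 fell, and the median log2 fold change of the list was 0.05. PLA2G4A, the cytosolic phospholipase that releases arachidonic acid, rose from 25.8 ± 0.475 to 59.5 ± 1.18 CPM (SD, n = 3), and SYK, the kinase below Fc receptors and integrins, had a log2 fold change of 0.67. PRKCB, a protein kinase C that phosphorylates NCF1, had a log2 fold change of -0.59. PRKCZ had a log2 fold change of -1.67 at levels of 1.00 CPM or less.

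Receptors that trigger the oxidase were split. Of 12 tested, 3 rose and 6 fell, and the median log2 fold change of the list was -0.09. The integrin chain ITGAM rose from 11.9 ± 0.151 to 41.9 ± 0.206 CPM (SD, n = 3), with 1.81 as the log2 fold change. The Fc receptor FCGR1A and the Toll-like receptors TLR2 and TLR4 had log2 fold changes of -0.91, -0.78 and -0.63.

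Among 18 tested transcription factors and cofactors known to act at oxidase gene promoters, 10 rose and 7 fell, and the median log2 fold change of the list was 0.20. The C/EBP factors CEBPD and CEBPB fell by 1.27 and 1.25 on the log2 scale, and the homeobox gene MEIS1 rose by 0.79. SPI1 (PU.1) and IRF8, which drive CYBB in maturing myeloid cells, were singled out after their values were seen. Both fell, with log2 fold changes of -0.33 and -0.63, while CYBB rose.

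Of 16 tested genes that handle superoxide and peroxide, 5 rose and 7 fell, and the median log2 fold change of the list was -0.05. Myeloperoxidase (MPO), which uses the peroxide made from oxidase products, fell from 22.4 ± 1.19 to 3.66 ± 0.279 CPM (SD, n = 3), with -2.61 as the log2 fold change. The peroxiredoxin PRDX1 and the peroxidase GPX1 had log2 fold changes of 0.74 and 0.49, and catalase (CAT) of -0.58. Of 12 tested enzymes that make NADPH, the substrate of the oxidase, 3 rose and 6 fell, and the median log2 fold change of the list was -0.07. The log2 fold changes were -2.35 for ALDH1L2, -0.79 for PGD, -0.25 for ME2 and 0.40 for the transhydrogenase NNT.

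Other NADPH oxidases and their partners were mostly at low levels. Of 10 listed genes of that group 7 were in the table, and 5 of these had means under 1 CPM in both groups. DUOX1 rose from 1.19 ± 0.257 to 2.42 ± 0.666 CPM (SD, n = 3), with an adjusted p of 0.0014 in edgeR. The partner NOXA1 was higher, at 12.47 ± 0.68 CPM in the controls and 13.32 ± 1.894 CPM after knockdown (SD, n = 3). Its groups overlapped, and edgeR gave it no call at an adjusted p of 0.418.

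**Figure D5:**
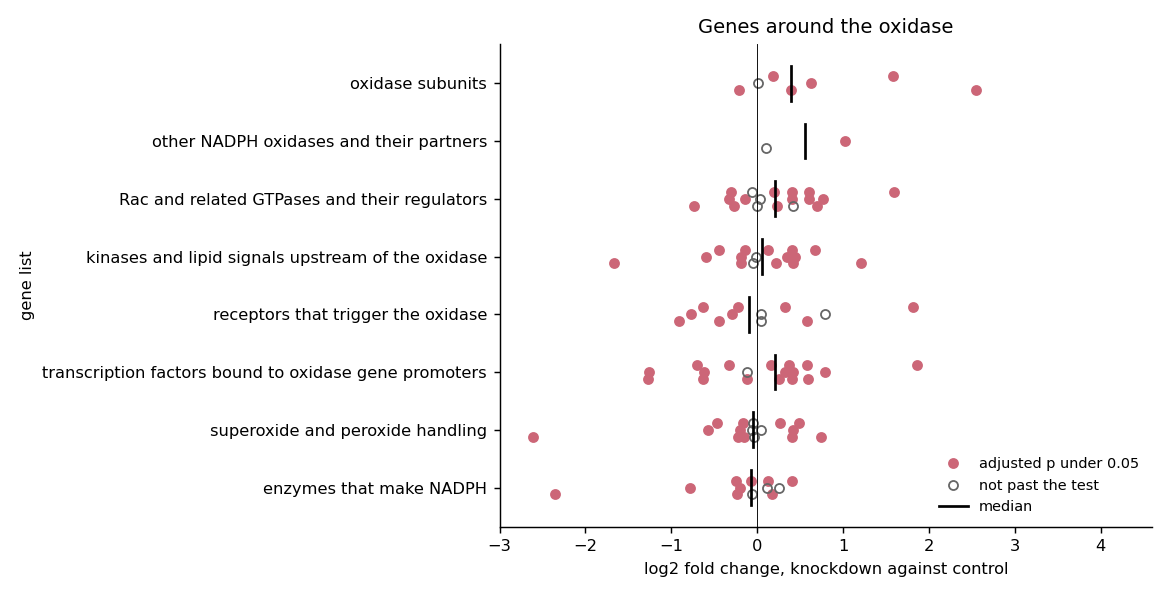
Log2 fold changes of the tested genes in the oxidase set and in 7 lists of genes around it (filled points passed the test, open points did not, bars are medians). CYBB is the highest point of the oxidase set at 2.54, and every list other than the small group of other NADPH oxidases has genes past the test on either side of 0.

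Markers of the line and of other cell types were measured beside these results. Of 10 markers of the myeloid leukaemia line, all of which were tested, 6 rose and 3 fell. Their summed level was 1800 to 1820 CPM in the controls and 1890 to 1950 CPM after knockdown. The sum hides larger shifts of single markers in both directions. Mean levels fell from 274 to 51.4 CPM for LYZ and from 22.4 to 3.66 CPM for MPO. They rose from 11.0 to 45.5 CPM for ANPEP and from 88.0 to 188.5 CPM for PTPRC. All 5 tested neutrophil granule and receptor genes of 9 listed fell, and the summed level of the list was 2030 to 2070 CPM in the controls and 891 to 1070 CPM in the knockdown libraries. Of 8 monocyte and macrophage markers, 3 were tested, 1 rose and 1 fell, the summed level was 135 to 138 CPM and then 117 to 124 CPM, and 4 of the 6 in the table were under 1 CPM in both groups.

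Markers of other lineages had lower summed levels than these lists in every library. The summed levels in the controls and then in the knockdown libraries were 3.94 to 5.04 and 6.53 to 7.30 CPM for 6 B cell markers, and 25.6 to 28.4 and 24.0 to 26.3 CPM for the T and NK cell markers. They were 4.24 to 5.37 and 8.94 to 11.4 CPM for erythroid and megakaryocyte markers, and 2.12 to 2.67 and 2.63 to 3.49 CPM for eosinophil markers. The epithelial and fibroblast list, led by keratins and TAGLN, was at 28.6 to 30.9 and 62.4 to 66.2 CPM. No marker in the table was at 0 in all libraries. The part of these marker levels in the changes of the oxidase genes was not tested.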

How the data were processed

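Trizol RNA and an Illumina TruSeq kit were used for the libraries, per the labels' protocols. HISAT2 2.0.5 and the build hg38 were used, per the submitters' processing notes. The authors deposited raw read counts for Ensembl genes, 1 column for each of 6 libraries, without normalization, per the file headers. For the counter, the annotation and the use of strand, settings were not given in the sources used here. Columns were matched to samples by title. Symbols came from a table of gene names (23211 of 23227 identifiers matched), and exon lengths, positions and overlaps from GENCODE 29 on GRCh38, whose gene models may differ from those used for counting.

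The test was edgeR's quasi-likelihood test on these counts (edgeR 4.0.16, R 4.3.3; TMM, filterByExpr defaults, robust glmQLFit and glmQLFTest, two-sided, Benjamini-Hochberg over 14635 genes, threshold 0.05). Tested genes held 99.91% of the counts. Standard errors are the log2 fold change over the square root of F, and 95% intervals use them with the fitted degrees of freedom. Precision is set by 3 libraries a group and a common biological coefficient of variation of 0.0392. The procedure was also run on simulated data, in which far fewer genes changed than were called here. That run therefore does not measure the error rate in these data.

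The 7 genes and the lists were chosen with earlier results of these data known. Genes named were the 7, ENO1, overlapping or near-identical genes, and the 3 nearest profiles to CYBB and to CYBA. Also named were up to 4 genes per pathway list and of the line markers. These had the largest changes among those that passed and reached a mean of 1 CPM. NOXA1 was named for its level instead. Some items are not reported here. Alternatives were other scalings (RLE, upper-quartile, plain library size, no mitochondrial genes), filters (none, 5 CPM in 3 libraries), DESeq2 1.42.0, limma-voom (limma 3.58.1), a replicate block, each library left out, a threshold of 0.01, other lengths and NCF1 summed with NCF1B. Setting aside the 2 libraries that stood apart was added after the data were seen.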

Additional observations from a re-analysis of the deposited data

How the results depend on the processing

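The directions and calls of CYBB, NCF1, RAC1, NCF4, CYBC1 and RAC2 were the same under every alternative run, so 5 rose and 1 fell in each, with 6 calls except where the set-aside libraries added CYBA. The log2 fold change ran from 2.52 to 2.60 for CYBB, 1.54 to 1.64 for NCF1, 0.61 to 0.68 for RAC1, 0.37 to 0.44 for NCF4, 0.16 to 0.24 for CYBC1 and -0.25 to -0.16 for RAC2. The call of CYBA was the exception: its log2 fold change was -0.0194 without a filter, and -0.0207 to 0.038 over the fits that left out 1 library, with no call in any of these. It passed only with control replicate 2 and knockdown replicate 3 set aside, at 0.067 (edgeR adjusted p = 0.0178), and the cause was not tested. Same-numbered libraries did not deviate together (correlations of -0.000325, 0.00249 and -0.0456), and the replicate block gave 4165 genes higher and 4325 lower, against 4309 and 4458 without it. The RAC2 share differed by -12.8 to -10.6 percentage points over other lengths and left-out libraries. CYBB rests on 174 to 191 counts in each control library, the smallest counts among the 7 genes.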
